A study of Rattus norvegicus with 6 samples.

Results

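Expression of 10 genes that carry growth hormone and insulin-like growth factor (IGF) signals through the liver was followed in rats that had received faecal microbiota from hyperandrogenic or control donors. They were the growth hormone receptor Ghr, its transcription factor Stat5b, the hormone Igf1, its circulating partner Igfals, the receptor Igf1r and the binding proteins Igfbp1, Igfbp2, Igfbp3, Igfbp4 and Igfbp5. The 10 genes were chosen by name from the 30957 rows of the expression table, with their t-DHEA against t-PBS counts in the same 6 livers already known. Their differences between groups are therefore given as a description, with no test. Of the 10 genes, 9 passed the filter for low counts, as did 12210 genes in all, and Igf1r did not.

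Liver RNA was sequenced from 3 rats of the t-PBS group and 3 rats of the t-DHEA group. All were female Sprague Dawley rats, bought at 3 weeks of age, whose own gut flora had been depleted by antibiotics in the drinking water. For 2 weeks thereafter each was gavaged daily with a faecal suspension, from donors injected with dehydroepiandrosterone (DHEA, an androgen precursor used to model polycystic ovary syndrome) in the t-DHEA group, or from donors given phosphate-buffered saline (PBS) in the t-PBS group. Faeces of the donors of a group were pooled, so recipients cannot be traced to single donors. The spread between livers of a group therefore does not measure variation between donors. Rats were housed 2 per cage, and which livers came from cage mates is not given. Feeding state and hour at which the livers were taken are not given in the sources used here. Total counts ranged from 13031722 to 14316886 in t-PBS and from 12348511 to 13529414 in t-DHEA. A gene with no count could thus lie at up to 0.21 to 0.248 CPM (counts scaled to library size), which is the level of 3 counts and covers counting error only. The livers carried the markers of their label: 6 hepatocyte transcripts, among them Alb, Apoa1 and Ttr, summed to between 162800 and 190400 CPM.

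Growth hormone from the pituitary binds GHR on hepatocytes, where the kinase JAK2 phosphorylates STAT5b and STAT5b drives transcription of Igf1, Igfals and the feedback inhibitors Socs2 and Cish. Most IGF1 in blood travels in a ternary complex with IGFBP3 and the acid-labile subunit, the product of Igfals. In rodent liver the hormone and the acid-labile subunit come from hepatocytes and IGFBP3 largely from non-parenchymal cells. The other binding proteins form smaller complexes, and Igfbp1 is the acutely regulated member, repressed by insulin and induced by fasting, glucocorticoid and cell stress. IGF1R, through which IGF1 acts, is scarce on mature hepatocytes.

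In this family 4 genes lie as neighbouring pairs, Igfbp1 beside Igfbp3 and Igfbp2 beside Igfbp5. In the coordinates of the table (Rnor_6.0), Igfbp1 (ENSRNOG00000058780, chr14:87448692-87453785) ended 3862 bases before Igfbp3 (ENSRNOG00000061910, chr14:87457647-87465374). Igfbp2 (ENSRNOG00000016957, chr9:80118029-80144789) ended 5422 bases before Igfbp5 (ENSRNOG00000017206, chr9:80150211-80167033). RefSeq places the genes of each pair on opposite strands with their ends facing each other, so their start sites lie apart. In each pair 1 gene was lower in t-DHEA without overlap (Igfbp3, Igfbp5), and the other overlapped between the groups (Igfbp1, Igfbp2), as given further on. The 250 bases before the start sites of these 4 genes are therefore printed, as RefSeq gives them for GRCr8, 5′ to 3′ on the strand of the gene. Capitals mark matches, on either strand, to the 5 short motifs named after the sequences.
Igfbp1 (chr14:86261027-86261276, plus strand): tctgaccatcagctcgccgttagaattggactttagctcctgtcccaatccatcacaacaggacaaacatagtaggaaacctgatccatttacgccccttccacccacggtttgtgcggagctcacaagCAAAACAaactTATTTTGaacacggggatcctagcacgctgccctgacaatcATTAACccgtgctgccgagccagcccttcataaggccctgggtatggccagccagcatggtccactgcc
Igfbp3 (chr14:86277945-86278194, minus strand): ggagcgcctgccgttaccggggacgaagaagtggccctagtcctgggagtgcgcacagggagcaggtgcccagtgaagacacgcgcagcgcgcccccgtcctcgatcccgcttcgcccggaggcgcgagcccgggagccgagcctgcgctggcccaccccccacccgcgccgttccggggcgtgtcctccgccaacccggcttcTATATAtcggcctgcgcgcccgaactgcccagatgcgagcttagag
Igfbp2 (chr9:81864561-81864810, plus strand): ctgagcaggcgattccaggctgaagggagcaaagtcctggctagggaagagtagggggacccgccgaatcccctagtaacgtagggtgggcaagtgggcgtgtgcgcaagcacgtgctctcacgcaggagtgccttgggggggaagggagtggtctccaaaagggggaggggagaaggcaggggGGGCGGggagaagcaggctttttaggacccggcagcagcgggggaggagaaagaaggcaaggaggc
Igfbp5 (chr9:81914188-81914437, minus strand): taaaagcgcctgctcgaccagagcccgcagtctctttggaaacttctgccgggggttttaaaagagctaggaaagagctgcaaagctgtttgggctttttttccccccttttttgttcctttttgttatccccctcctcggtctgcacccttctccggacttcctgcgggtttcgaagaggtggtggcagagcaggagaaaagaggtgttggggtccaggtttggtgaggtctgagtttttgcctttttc
The Igfbp1 window held the insulin response unit (letters CAAAACA or CAAAATA) 2 times, at bases 121 to 115 and 110 to 104 before the start, and an HNF1 half-site (GTTAAT) at bases 69 to 64. A TATA box (TATAAA or TATATA) stood at bases 46 to 41 in Igfbp3 and a GC box (GGGCGG) at bases 66 to 61 in Igfbp2. The Igfbp5 window matched none of them. Among 33469 promoters of the same length, 9.54% held the insulin response unit, 6.45% the HNF1 half-site, 16.1% the TATA box and 30.5% the GC box. Of the other members, Igf1 held an insulin response unit at bases 67 to 61, Igfbp4 a TATA box at bases 40 to 35, Stat5b 3 GC boxes and Igf1r 1. A STAT5 site (TTCNNNGAA), found in 7.67% of all promoters, was in none of the 10 windows, which says nothing of sites elsewhere.

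Levels of Igf1, Igfals, Ghr and Stat5b overlapped between the groups, whereas Igfbp3 and Igfbp5 were lower in every t-DHEA liver than in any t-PBS liver. Under the thresholds that the study used (unadjusted p below 0.05 and fold-change above 1.2), 2 of the 9 tested genes were called, both lower, and 0 were called higher. Across all 12210 genes 4.95% were called, 2.98% lower (364 genes) and 1.97% higher (240 genes) in t-DHEA, a split that shifted to 448 lower and 165 higher when limma was run on the FPKM values. With Benjamini-Hochberg adjustment of the edgeR quasi-likelihood test, 0% of all genes passed 0.05, while 634 had an unadjusted p below 0.05 and the likelihood-ratio test of edgeR and DESeq2 passed 28 and 20 genes after adjustment. Groups that did not overlap were seen in 2 of the 9 members, both lower, against 5.42% of all genes lower and 4.66% higher. Since the genes were chosen with this contrast known, nothing is read from these counts. The median log2 fold change of the 9 genes was 0.04, and that of all genes tested was 0.0013.

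**Figure D1:**
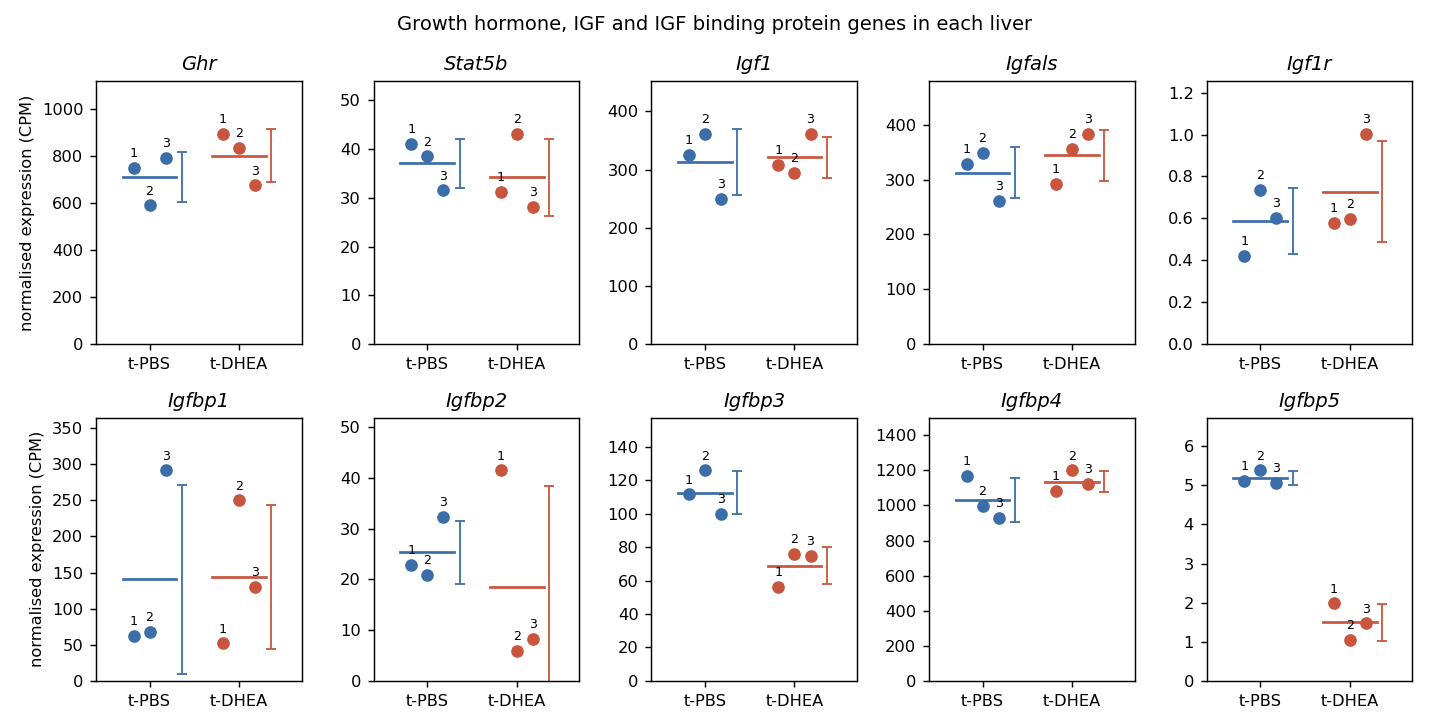
TMM-normalised CPM (vertical axes, linear, from 0) of each of the 10 genes in the 3 t-PBS and 3 t-DHEA livers. Each point is 1 liver labelled with its replicate number, the line is the mean and the bar the SD (n = 3, cut at 0 for Igfbp2). Igfbp3 and Igfbp5 are the panels in which the groups are apart, and in the Igfbp1 and Igfbp2 panels the livers of a group are spread widely.

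Ghr (ENSRNOG00000015654, chr2:53150370-53413638), the receptor through which the liver senses growth hormone, stood at 750.5, 589 and 789.5 CPM in t-PBS livers 1 to 3. In t-DHEA livers 1 to 3 it stood at 894, 834 and 675 CPM. The groups overlapped, with means of 709.8 ± 106 and 801 ± 113 CPM (SD, n = 3) and a log2 fold change of 0.17 (SE 0.15). Stat5b (ENSRNOG00000019075, chr10:88686207-88754829), the factor that the receptor activates, gave 41.1, 38.5 and 31.6 CPM in t-PBS and 31.3, 43.2 and 28.1 CPM in t-DHEA. Again the values of both groups ran through each other, with a log2 fold change of -0.12 (SE 0.17). It moved between -0.32 and 0.012 when single livers were left out, so it had no settled sign.

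Igf1 (ENSRNOG00000004517, chr7:28412198-28486609), the main endocrine product of this axis, was measured at 325, 362 and 250.2 CPM in t-PBS livers. The t-DHEA values of 308, 294 and 361 CPM lay within that range. Means were 312 ± 56.7 and 321 ± 35.4 CPM (SD, n = 3), and the log2 fold change was 0.04 (SE 0.15), between -0.097 and 0.16 as single livers were left out. Igfals (ENSRNOG00000015061, chr10:14240219-14243597), whose product extends the life of IGF1 in blood, had 328, 349 and 261 CPM in t-PBS. In t-DHEA it had 292, 356 and 383.5 CPM, again with overlap and a log2 fold change of 0.14 (SE 0.14). Expressed per transcript length as FPKM (fragments corrected for transcript length and library depth), the ratio of Igf1 to Igfals was 0.976 ± 0.0385 in t-PBS and 0.922 ± 0.113 in t-DHEA (SD, n = 3).

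Igfbp3, the third component of the ternary complex, was lower in t-DHEA. Its counts were 1592, 1708 and 1326 in t-PBS and 681, 1016 and 969 in t-DHEA, or 112, 126 and 100.1 CPM against 56.2, 76 and 74.9 CPM. The highest t-DHEA liver lay below the lowest t-PBS liver. Mean CPM was 112 ± 13 in t-PBS and 69 ± 11.1 in t-DHEA (SD, n = 3), a log2 fold change of -0.70 (SE 0.14), or 1.63-fold. The call was kept in 6 of 6 fits that left out a single liver, in which the log2 fold change ran from -0.78 to -0.58. These fits reuse the values known when the gene was chosen, so they add no independent support. Against the other components, the FPKM ratio of Igf1 to Igfbp3 was 3.04, 3 and 2.61 in t-PBS and 5.73, 4.03 and 5.03 in t-DHEA. The ratio of Igfals to Igfbp3 was 3.13, 2.95 and 2.77 in t-PBS and 5.53, 4.99 and 5.45 in t-DHEA. Both ratios were higher in every t-DHEA liver, with means of 2.88 ± 0.236 against 4.93 ± 0.852 for Igf1 and 2.95 ± 0.176 against 5.32 ± 0.294 for Igfals (SD, n = 3). As they share the Igfbp3 values, they add nothing independent to the lower Igfbp3. RNA levels of this kind do not measure the proteins in blood.

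Igf1r (ENSRNOG00000014187, chr1:128924966-129206516), the receptor for IGF1, was close to the limit of detection. It had 6, 10 and 8 counts in t-PBS and 7, 8 and 13 counts in t-DHEA, which is 0.587 ± 0.159 and 0.727 ± 0.24 CPM (SD, n = 3). A difference between groups was not detectable at this depth.

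Igfbp4 (ENSRNOG00000010635, chr10:86950557-86962578), whose product mostly restrains IGF action, was the steadiest of the binding proteins. It measured 1169, 997 and 929 CPM in t-PBS and 1084, 1200 and 1125 CPM in t-DHEA, with overlap and a log2 fold change of 0.14 (SE 0.12). Its SD of log2 CPM within groups was 0.131, where the median gene had 0.188. The members ranged widely in this respect. Stat5b, Igf1, Ghr, Igfals and Igfbp3 had SDs between 0.209 and 0.267, and Igfbp5, counted few times, had 0.296. Igfbp1 and Igfbp2 stood far above them, with 1.19 and 1.08, higher than 99.4% and 99.2% of all genes tested.

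Igfbp1 counts were 893, 925 and 3861 in t-PBS and 629, 3338 and 1689 in t-DHEA. In CPM these were 62.6, 68.2 and 291 against 51.9, 249.7 and 130.5, a span of 5.61-fold between the lowest and the highest liver. The highest liver was in t-PBS and the second highest in t-DHEA, so the groups overlapped throughout. Means were 141 ± 130.5 and 144 ± 99.6 CPM (SD, n = 3), and the log2 fold change of 0.04 had an SE of 0.66. It became -0.62 without t-DHEA liver 2 and 1.14 without t-PBS liver 3. The neighbouring Igfbp3 had its lowest t-PBS value in t-PBS liver 3, where Igfbp1 was highest, whereas the t-DHEA livers had the same order for both genes. The FPKM ratio of Igfbp1 to Igfbp3 accordingly ranged from 0.853 to 4.59 in t-PBS and from 1.45 to 5.17 in t-DHEA.

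Igfbp2, a binding protein of the fetal liver that is also raised by fasting in adults, had 325, 282 and 428 counts in t-PBS. In t-DHEA it had 502, 79 and 107 counts. The corresponding 22.8, 20.8 and 32.3 CPM lay inside the t-DHEA range of 41.5, 5.91 and 8.27 CPM, a 7.01-fold span. The log2 fold change was -0.46 (SE 0.61). This value rested on t-DHEA liver 1: without it the log2 fold change was -1.83 (SE 0.24) and met the thresholds of the study, and without t-DHEA liver 2 it was -0.025. The livers highest in Igfbp2 and in Igfbp1 were not the same, and t-DHEA liver 1, highest in Igfbp2, was lowest in Igfbp1.

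Igfbp5, which in many tissues comes from mesenchymal cells and binds extracellular matrix, was the rarest binding protein and the one with the largest fold difference among the 9 tested genes. Its counts were 73, 73 and 67 in t-PBS and 24, 14 and 19 in t-DHEA. These were 5.12, 5.38 and 5.06 CPM against 1.98, 1.05 and 1.47 CPM, without overlap. Means were 5.19 ± 0.174 and 1.5 ± 0.468 CPM (SD, n = 3), a log2 fold change of -1.79 (SE 0.25), or 3.46-fold. The call was kept in 6 of 6 fits without a single liver, with log2 fold changes from -2.04 to -1.58. As for Igfbp3, these fits reuse the values known at the choice of the gene. Within t-DHEA the livers had the same order for Igfbp5 and its neighbour Igfbp2, but in liver 1 Igfbp2 was above every t-PBS liver and Igfbp5 below them all. In bulk liver, fewer cells of a type and less RNA per cell cannot be told apart, for Igfbp5 or for any other gene here.

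**Figure D2:**
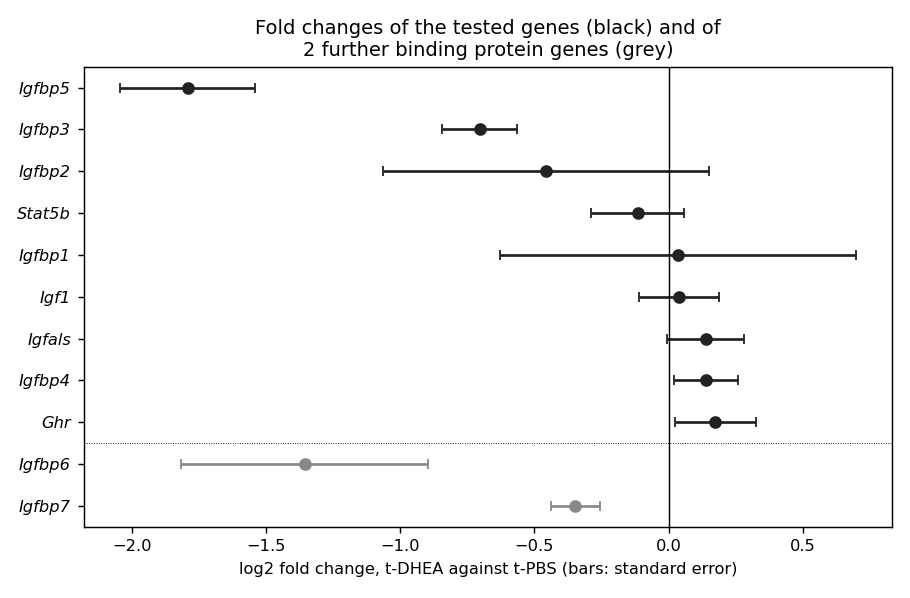
Log2 fold change of t-DHEA over t-PBS (horizontal axis) for the 9 tested members and 2 related genes, from the fit across all genes. Black points are members, grey points are the related Igfbp6 and Igfbp7, and bars are SE. Igfbp5 (-1.79) and Igfbp3 (-0.70) lie furthest left among the members, and the bars of Igfbp1 and Igfbp2 are the widest.

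Levels were compared between genes as FPKM only. Averaged over the 6 livers, Igfbp4 led with 497 ± 43.2 FPKM and was above every other member in 6 of 6 livers. Ghr (168 ± 22), Igfals (145 ± 20.4), Igf1 (137 ± 19.9) and Igfbp1 (92.9 ± 67.5 FPKM) followed, each above the next in only 4 of 6 livers, so neighbours in this order did not differ beyond their spread. Igfbp3 (37.9 ± 11.6) was above Igfbp2 (17.1 ± 10.5) in 5 livers, and Igfbp2 was above Stat5b (11 ± 1.95 FPKM) in 4. Lowest were Igfbp5, with 0.472 ± 0.294 FPKM, and Igf1r, with 0.16 ± 0.0485 FPKM (SD over the 6 livers).

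Within the summed FPKM of the 5 binding proteins, Igfbp4 supplied 83.5, 80.1 and 62.3% in t-PBS and 84.7, 73.4 and 80.8% in t-DHEA. The share of Igfbp1 was 6.37, 7.8 and 27.8% in t-PBS and 5.78, 21.8 and 13.3% in t-DHEA, and the low Igfbp4 shares were those of the livers with high Igfbp1. Neither share separated the groups. Igfbp3 made up 7.21, 9.15 and 6.07% in t-PBS and 3.97, 4.2 and 4.86% in t-DHEA, a mean of 7.47 ± 1.56% against 4.34 ± 0.46% (SD, n = 3). Igfbp2 supplied between 0.615 and 5.51%. Igfbp5 supplied 0.116 ± 0.0147% in t-PBS and 0.033 ± 0.0139% in t-DHEA, so its fold difference, the largest, concerned the smallest part of the pool. The sum itself was 641 ± 45.2 FPKM in t-PBS and 651 ± 84.1 FPKM in t-DHEA, with overlap.

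**Figure D3:**
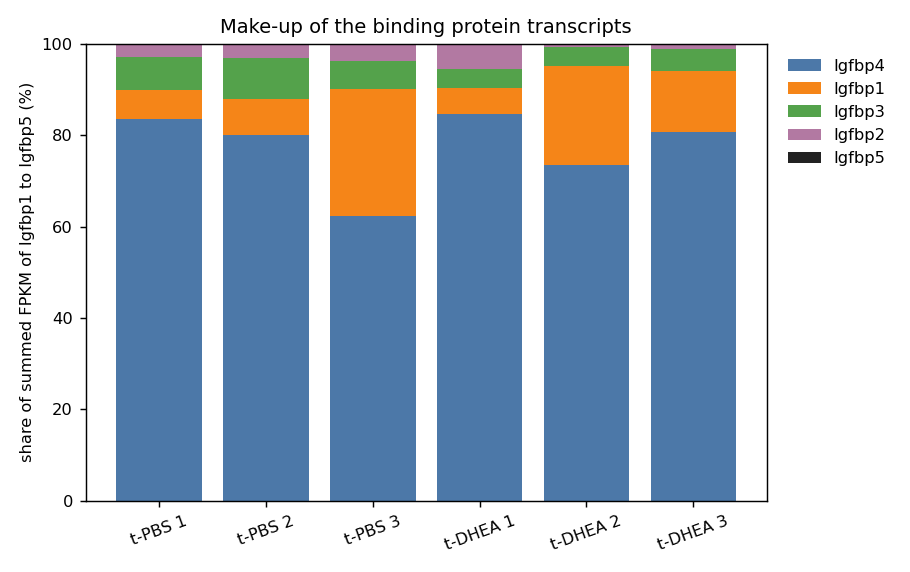
Share of each binding protein gene (percent of the summed FPKM of Igfbp1 to Igfbp5, vertical axis from 0) in the 6 livers, stacked to 100%; Igfbp5 is too small to be seen. Igfbp4 takes between 62.3 and 84.7% of each liver, and Igfbp1 is the part that varies most from liver to liver.

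The wider pathway was read from 8 lists of 82 further genes, of which 81 were found in the table and 72 were tested. Of these 72 genes, 4 were called higher and 3 lower at the thresholds of the study (1 higher and 4 lower with limma on FPKM), and none passed 0.05 after adjustment over all genes (background as above, 4.95% of genes called). Relatives and proteases of the binding proteins held 2 of the lower genes among 3 tested. Igfbp7, a matrix protein that binds IGFs only weakly, was 63.7, 64.5 and 57 CPM in t-PBS and 48.9, 47.6 and 49.1 CPM in t-DHEA. It was lower without overlap, by a log2 fold change of -0.35 (SE 0.091, adjusted p = 0.8005 by the edgeR quasi-likelihood test). Igfbp6, which prefers IGF2, was 3.71, 4.87 and 4.6 CPM in t-PBS and 2.81, 0.449 and 1.93 CPM in t-DHEA. It too was lower without overlap, by -1.36 on the log2 scale (SE 0.46, adjusted p = 0.8997, edgeR). Its counts were few, at 53, 66 and 61 in t-PBS and 34, 6 and 25 in t-DHEA. Both calls were kept in 6 of 6 fits without a single liver, in which Igfbp6 ran from -1.88 without t-DHEA liver 1 to -0.89 without t-DHEA liver 2. Htra1, a protease that cleaves binding proteins, was between 71.5 and 88.5 CPM in both groups, and Igfbpl1, Pappa and Pappa2 were listed at 0 in all livers.

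Among ligands and receptors, 0 of 4 tested genes were called. Gh1 and Prl, the pituitary hormones, were listed at 0 in all 6 livers. Prlr, the prolactin receptor, which is abundant in female rat liver, was 563, 220.0 and 458 CPM in t-PBS and 673, 655 and 303 CPM in t-DHEA, with overlap. Igf2r, which clears IGF2, was 59.4, 61.4 and 58.9 CPM against 72.5, 64.5 and 67.8 CPM. Its groups did not overlap, but it missed the threshold (log2 fold change 0.19, SE 0.088, adjusted p = 0.969, edgeR). Insr, the insulin receptor, was within 89.4 and 118 CPM in all livers.

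Growth hormone signal transduction gave 0 calls in 15 tested genes, 6 of them with a log2 fold change above 0. Stat3 was 133, 133 and 132 CPM in t-PBS and 138, 155 and 129 CPM in t-DHEA, and the adaptor Shc1 lay between 80.8 and 93.5 CPM. The feedback inhibitors Socs2 and Cish, named here after their values were seen, varied more. Socs2 was 56.1, 36.7 and 15.5 CPM in t-PBS and 16.5, 27.6 and 34.2 CPM in t-DHEA, and Cish was 48, 30.3 and 14.1 CPM in t-PBS and 12.8, 28.3 and 38 CPM in t-DHEA. The livers kept the same order for both genes in each group, while the groups overlapped (log2 fold changes -0.47, SE 0.41, and -0.22, SE 0.45). Igf1 followed them only in part: t-PBS liver 3 was the lowest of its group for all 3 genes, but t-DHEA liver 1, the lowest of its group for Socs2 and Cish, was not the lowest for Igf1.

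Targets of the sex-dependent growth hormone pattern gave 0 calls in 10 tested genes. Cyp2c7, on the same list, was listed at 0 in all 6 livers and was not tested. Whether its RNA was absent or its reads were not assigned to it cannot be told here. Cyp2c11 and Cyp2c13, named after their values were seen, were at most 4.57 and 4.87 CPM. Their groups overlapped, with log2 fold changes of -1.04 (SE 0.85) and 1.07 (SE 0.53). Cyp2c12, the steroid hydroxylase that marks the female pattern in rats, was between 5262 and 6282 CPM in t-PBS and between 6088 and 6564 CPM in t-DHEA (log2 fold change 0.13, SE 0.13). A1bg, also female-predominant, was 3819, 1868 and 2810 CPM in t-PBS and 4324, 6311 and 2646 CPM in t-DHEA, with overlap (log2 fold change 0.64, SE 0.33, adjusted p = 0.9739, edgeR).

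Downstream of the insulin and IGF receptors, 1 of 12 tested genes was called higher and 1 lower. The regulatory subunit gene Pik3r1 was 62.1, 54.5 and 61.2 CPM against 85.6, 64.2 and 71.4 CPM (log2 fold change 0.31, SE 0.12, adjusted p = 0.957, edgeR). The docking protein gene Irs1 was 34.1, 30.1 and 33.8 CPM against 30.5, 26.3 and 21.9 CPM (log2 fold change -0.32, SE 0.14, adjusted p = 0.957, edgeR). The calls were kept in only 4 of 6 fits for Pik3r1 and 2 of 6 for Irs1 when single livers were left out. The kinase genes Akt1 and Akt2 lay between 74.9 and 102 CPM in all livers.

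Because Igfbp1 responds to feeding and stress, genes of those states were set beside it. Calls compare the groups and do not describe the spread of Igfbp1 within a group. Fasting genes gave 0 calls in 8, and Pck1, the gluconeogenic enzyme, was 1089, 1119 and 1471 CPM in t-PBS and 672, 1444 and 2334 CPM in t-DHEA. Pdk4, named here after its values were seen, was 152, 117 and 216 CPM in t-PBS and 110, 157 and 83.2 CPM in t-DHEA. It was highest in t-PBS liver 3 and t-DHEA liver 2, the livers highest in Igfbp1. The other fasting genes on the list did not have this order. Insulin-induced genes gave 1 call in 8, the lipogenic factor Srebf1 (log2 fold change 0.50, SE 0.21, adjusted p = 0.957, edgeR), which was kept in 2 of 6 fits without a single liver. Glucocorticoid and stress genes gave 2 calls in 12, both higher. Tat, tyrosine aminotransferase, was 480.5, 561 and 621 CPM in t-PBS and 630.4, 1044 and 992 CPM in t-DHEA, without overlap (log2 fold change 0.68, SE 0.19, adjusted p = 0.8053, edgeR), and kept its call in 6 of 6 fits. Sds, serine dehydratase, was 17.9, 15.6 and 17.1 CPM against 40.2, 10.6 and 110.3 CPM (log2 fold change 1.67, SE 0.64, adjusted p = 0.957, edgeR). Its call was kept in 2 of 6 fits without a single liver, where the estimate was 0.59 when t-DHEA liver 3 was omitted and 2.16 when t-DHEA liver 2 was omitted.

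Igfbp1 and Igfbp2, which differed most between livers, were compared with every other gene of at least 5 CPM on average (8998 genes) by the root mean square distance of their centred log2 CPM over the 6 livers. Igfbp2, with the largest SD over the 6 livers (1.1), is the gene that the naming rule takes. Igfbp1 (1.07) was added after its values were seen. The nearest genes to Igfbp1 were Btg2 (distance 0.425) and Jun (0.426), both immediate early genes, then Abhd1 (0.469), Rn60_10_0892.1 (0.476) and Gdf15 (0.476), a stress-induced cytokine, where the median gene was at 0.983. Jun was 77.3, 48.8 and 138 CPM in t-PBS and 32, 144 and 87.1 CPM in t-DHEA. Gdf15 was 7.64, 6.12 and 23.9 CPM in t-PBS and 5.95, 29.7 and 6.1 CPM in t-DHEA. Both were highest in t-PBS liver 3 and t-DHEA liver 2, the livers with the highest Igfbp1. Atf3, a stress-induced transcription factor on the lists that is named here after its values were seen, was at 5.89 and 8.75 CPM in those livers and between 0.495 and 1.47 CPM in the others. Other stress genes of the same list did not have this order: Trib3 was 3.02 and 3.96 CPM in those livers and between 3.06 and 7.96 CPM in the others, and Asns was 3.09 and 2.17 CPM against 3.14 to 5.33 CPM.

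The genes nearest to Igfbp2 were Tox (0.5), Sult1c2a (0.512), Nab2 (0.533), Col8a1 (0.571) and Adamts2 (0.593), against 1.02 for the median gene. Sult1c2a, a sulphotransferase, was 47.7, 62.2 and 51 CPM in t-PBS and 49.6, 19 and 22.9 CPM in t-DHEA, so it shared with Igfbp2 the low values of t-DHEA livers 2 and 3. No gene among the nearest of Igfbp1 was among the nearest of Igfbp2. These distances over 6 livers are a description. All genes of a liver share its sequencing depth and cell make-up. Total counts and the summed cell type markers given below differed between livers. Whether cell make-up differed was not tested.

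**Figure D4:**
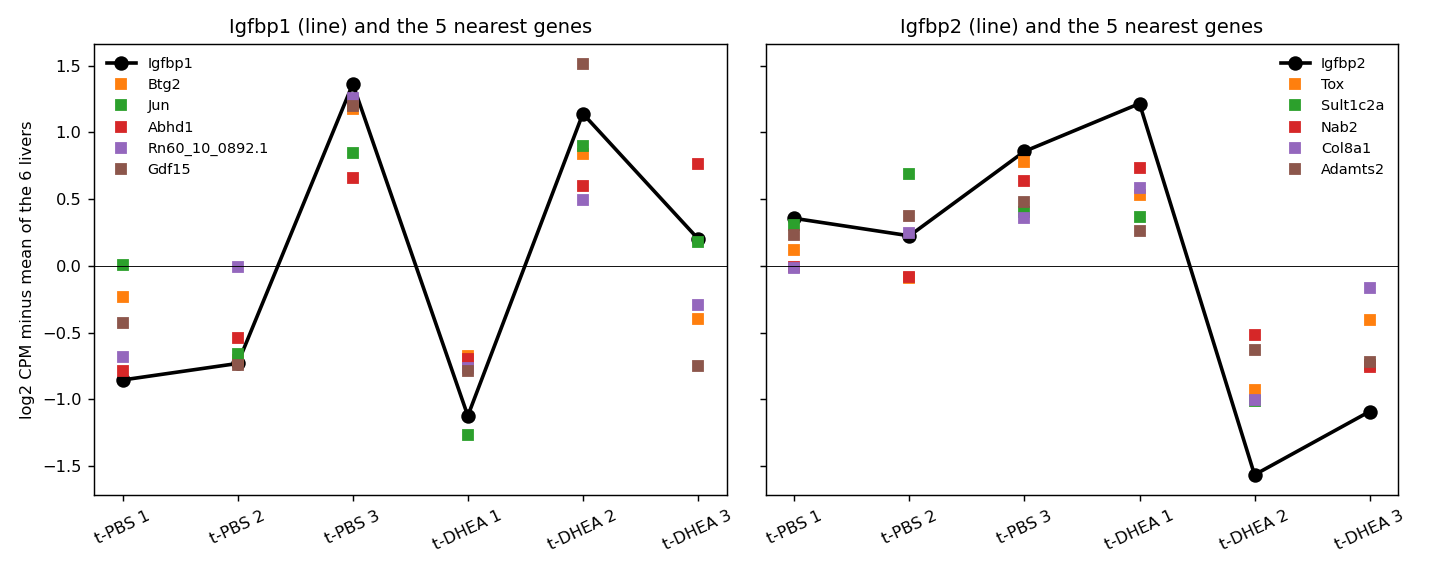
Centred log2 CPM (vertical axis) of Igfbp1 with its nearest genes and of Igfbp2 with its nearest genes, over the 3 t-PBS and 3 t-DHEA livers (horizontal axis); the line only joins the points of the member. Igfbp1, Btg2, Jun and Gdf15 are high in t-PBS liver 3 and t-DHEA liver 2, whereas Igfbp2 and its 5 nearest genes are below their means in t-DHEA livers 2 and 3.

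Some markers of other liver cells were also lower in t-DHEA. The summed level of 7 markers of mesothelium, the cells of the liver capsule, was 35 to 37.4 CPM in t-PBS and 18.8, 1.87 and 28.4 CPM in t-DHEA. Of the 7, 6 were tested and 4 called lower (Msln, Upk3b, Muc16 and Upk1b). Gpm6a went the other way in t-DHEA livers 1 and 3 (12.7 and 15.9 CPM, against 10.3 to 10.8 CPM in t-PBS), and without it the sum was 24.6 to 27.1 CPM in t-PBS and 6.11, 1.72 and 12.5 CPM in t-DHEA. The markers Lrrn4, not called, and Wt1, not tested, were at 0 in t-DHEA liver 2. The 5 bile duct markers summed to between 18.2 and 22.8 CPM in t-PBS and between 9.05 and 15.8 CPM in t-DHEA, with Krt19 and Krt7 called lower among 4 tested and Krt7 at 0 in t-DHEA liver 2. Epcam and Sox9 overlapped between the groups and were not called (log2 fold changes -0.255 and -0.677), and Spp1 was not tested.

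The 8 stellate cell markers summed to 533.5 to 683 CPM in t-PBS and 438 to 532 CPM in t-DHEA, with Col3a1 and Lum called lower. That separation came from Col3a1: without it the sums overlapped, at 155 to 184 CPM and 152 to 182 CPM. Of the 8 markers 2 had a log2 fold change above 0, Lrat (0.04) and Rgs5 (0.03), and the median was -0.14. Dcn, Reln, Pdgfrb and Des had -0.01, -0.11, -0.16 and -0.19, each with overlap and not called. Igfbp5 and Igfbp6 were lowest in t-DHEA liver 2, as the mesothelial, bile duct and stellate sums were, whereas Igfbp3 was lowest in t-DHEA liver 1. The rest of the order differed. Among the t-DHEA livers Igfbp5 and Igfbp6 were highest in liver 1, but the mesothelial, bile duct and stellate sums were highest in liver 3. Without Col3a1 the stellate sum was highest in liver 1. Without t-DHEA liver 2 the log2 fold change of Igfbp5 was -1.58 and that of Igfbp6 was -0.89.

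Hepatocyte, endothelial and Kupffer cell sums overlapped between the groups, with 0 of 6, 1 of 5 (Kdr, higher) and 0 of 6 markers called. Kupffer cell markers were 360 to 470 CPM in t-PBS and 410 to 565 CPM in t-DHEA, and endothelial markers 199 to 313 CPM and 298 to 306 CPM. The red blood cell sum was higher in t-DHEA (185 to 284 against 304 to 590 CPM), but only the globin genes Hba1, Hbb and Hbb-b1 were called. Alas2 and Slc4a1 overlapped between the groups, with log2 fold changes of 0.38 and -0.11. The smooth muscle sum was higher too (20.1 to 27.6 against 29.1 to 42.4 CPM), but only Tagln was called, 2 of 4 tested markers had a log2 fold change above 0, and without Tagln the groups overlapped (10.3 to 15 against 7.49 to 19.8 CPM). Relative to the t-PBS mean, Igfbp5 stood at -1.39, -2.31 and -1.82 on the log2 scale in the t-DHEA livers. The mesothelial sum stood at -0.96, -4.29 and -0.36, or at -2.09, -3.92 and -1.06 without Gpm6a. Leaving out Col3a1, Gpm6a or Tagln was decided with the values in view. The part of these cell types in the lower Igfbp3, Igfbp5, Igfbp6 and Igfbp7 was not tested.

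**Figure D5:**
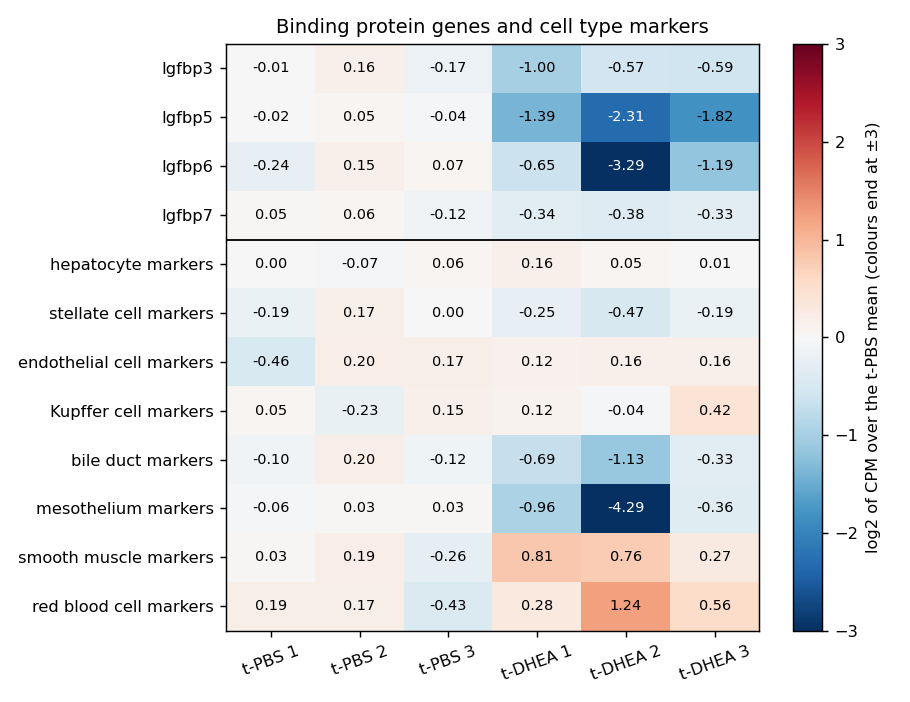
Log2 of CPM over the t-PBS mean (colour and printed value, colours ending at ±3) of Igfbp3, Igfbp5, Igfbp6 and Igfbp7 (upper rows) and of the summed markers of 8 cell types (lower rows), in the 6 livers (columns). The 4 binding protein genes and the bile duct, mesothelial and, through Col3a1, stellate sums are below 0 in each t-DHEA liver, and the mesothelial sum is lowest, at -4.29 in t-DHEA liver 2.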

How the data were processed

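RNA-seq libraries of 6 rat livers (t-PBS, n = 3, and t-DHEA, n = 3) were read from 1 gene table, in which the authors deposited a count and an FPKM value per gene and liver. Per the submitters' processing notes, reads were handled with HISAT2 (version 2.0.4) and StringTie (version 1.3.0) on Rnor_6.0. The annotation release and strand setting are not given in the sources used here. The authors ran edgeR on FPKM. Here the deposited counts were fitted with the edgeR quasi-likelihood test (edgeR 4.0.16, R 4.3.3, TMM, filterByExpr, two-sided), with Benjamini-Hochberg adjustment over 12210 genes. Deposited FPKM were used for comparing genes and in limma (3.58.1, log2(FPKM + 0.1)). DESeq2 (1.42.0) and further alternatives are given at the end. Fits were checked on simulated data.

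The members and gene lists were chosen with earlier results of these data known. Named genes were all members, pathway genes called or among the 3 most expressed of a list, the 5 genes nearest to Igfbp2 and chromosomal neighbours. Socs2, Cish, Cyp2c7, Cyp2c11, Cyp2c13, Pdk4, Atf3, Trib3 and Asns were named after their values were seen. So were the genes nearest to Igfbp1 and the single cell type markers. Of 82 pathway genes 81 matched by name, 1 of them through the RefSeq table (GRCr8), and for 5 names with several rows the most counted row was used. RefSeq promoters were found for all 10 members. No genome was used. Libraries were checked for duplicates, and none were alike within sampling noise.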

Additional observations from a re-analysis of the deposited data

How the results depend on the processing

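Igfbp3 and Igfbp5 met p below 0.05 and fold-change above 1.2 in each alternative tried (DESeq2, the likelihood-ratio test, limma on FPKM, upper-quartile scaling, a minimum of 10 counts per liver or none, fold-change above 1.5, a replicate block and leaving out single livers), so 2 members were called in all of them except without t-DHEA liver 1, where Igfbp2 made 3. For the members these fits reuse the values known when the genes were chosen, so the kept calls are a description. Over all genes the count of 604 became 275 (101 higher, 174 lower) with fold-change above 1.5, and 514 to 747 as single livers were left out. The 7 pathway genes called became 3 (2 higher, 1 lower) with fold-change above 1.5, and 6 to 11 as single livers were left out, with 11 (5 higher, 6 lower) without t-DHEA liver 2. The stricter threshold accounts for the lower counts by construction, and the cause of the higher count was not tested. Computed on CPM in place of FPKM, the mean share of Igfbp5 was 0.254% in place of 0.0743%, because CPM does not correct for its transcript length. For single named genes, 184 values under the alternatives kept their call or its absence, 22 kept their direction and were no longer called, that of Igfbp2 without t-DHEA liver 1 moved, and none of the called values reversed. Depth limits Igf1r, Igfbp5 and Igfbp6, which had at most 13, 73 and 66 counts. Igfbp6 was not among the genes fitted with a minimum of 10 counts per liver.

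The replicate numbers come from the sample titles, which state no pairing of livers. For livers with the same number in both groups, the correlation of deviations from the group means was -0.06 for each number. No t-PBS liver had its best match in the t-DHEA liver of its own number. Whether livers shared a cage or a batch was not tested. With the number as a replicate block 539 genes were called (212 higher, 327 lower), with 2 members and 6 pathway genes among them. The pathway genes Srebf1 (log2 fold change 0.47) and Sds (1.17) were not called with the block.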
